A study of Mus musculus with 10 samples.

Results

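The proteasome genes described here are the subunits, activators, inhibitor and assembly chaperones whose symbols start with Psm followed by a letter from a to g and a number. The rule found 50 protein-coding genes among the 55421 genes of the count table. They comprise 32 standard subunits, which are 8 alpha and 7 beta subunits of the 20S core, 6 ATPases and 11 non-ATPase subunits of the 19S cap. The remaining genes are the 3 immunoproteasome subunits Psmb8, Psmb9 and Psmb10, the thymic subunit Psmb11, 5 activator genes (Psme1, Psme2, Psme2b, Psme3 and Psme4), the inhibitor Psmf1, 7 assembly chaperones and Psmc3ip. Psmc3ip matches the symbol rule but encodes a meiotic recombination factor and is no proteasome subunit. Of the 50 genes, 48 had enough reads to be tested. The testis alpha subunit Psma8 reached at most 0.493 CPM (reads per 1000000 reads of the scaled library) in any library and Psmb11 was at 0 in every library but 1, where it reached 0.211 CPM.

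The RNA came from spleens of C57BL/6 mice aged 8 to 10 weeks, 10 days after immunization, from cells enriched with PNA beads and separated into fractions named CB and CC. Neither fraction name is spelled out in the labels, and PNA is a lectin that binds germinal center B cells. Mice were Pbrm1+/+ (WT, 3 libraries of each fraction) or Pbrm1-/- (HOMO, 2 libraries of each fraction). Pbrm1 encodes a bromodomain subunit of the PBAF chromatin remodelling complex. The count column names also carry the letters AID, which the labels do not explain. The promoter or cell type that drives any deletion is not given in the sources used here. The labels do not say whether each replicate is another mouse, and the p-values reflect only library-to-library spread, which may be technical.

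The 20S core is a barrel of 4 stacked rings that degrades proteins. Its outer alpha rings gate the entrance, and the beta rings carry the proteolytic sites of Psmb5, Psmb6 and Psmb7. The 19S cap recognises ubiquitin chains, removes them and feeds the unfolded substrate into the core by its ATPase ring. In lymphocytes and in cells exposed to interferon gamma, Psmb8, Psmb9 and Psmb10 take the places of Psmb5, Psmb6 and Psmb7, and the resulting immunoproteasome supplies peptides for MHC class I. Psme1 and Psme2 together form the PA28 activator, which docks on the core in place of the cap and is also induced by interferon gamma.

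The promoters of 5 genes are shown because they belong to genes on both sides of the main pattern below: 2 standard subunits that were lower in CC, 2 standard catalytic subunits that an immunoproteasome subunit replaces, and an activator that was higher in CC. Each run is the 250 bases before the RefSeq gene start on GRCm38.p6, read 5′ to 3′ on the gene's strand. Capitals mark the letters CCAAT or its complement ATTGG, the pentamer bound by NF-Y, in Psma1 and Psmd14, and TGACNNNGC, the core of the antioxidant response element bound by Nfe2l1 and Nfe2l2, in Psmb5 and Psmb6. The Psma1 run lies at chr7:114276117-114276366 on the minus strand, Psmd14 at chr2:61711444-61711693 on the plus strand, Psmb5 at chr14:54617996-54618245 on the minus strand, Psmb6 at chr11:70525107-70525356 on the plus strand, and Psme2 at chr14:55591102-55591351 on the minus strand.
Psma1: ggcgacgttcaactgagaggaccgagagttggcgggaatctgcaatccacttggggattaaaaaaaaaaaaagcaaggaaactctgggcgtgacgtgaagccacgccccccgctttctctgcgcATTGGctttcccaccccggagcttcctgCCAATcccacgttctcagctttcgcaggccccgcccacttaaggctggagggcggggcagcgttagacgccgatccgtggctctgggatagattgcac
Psmd14: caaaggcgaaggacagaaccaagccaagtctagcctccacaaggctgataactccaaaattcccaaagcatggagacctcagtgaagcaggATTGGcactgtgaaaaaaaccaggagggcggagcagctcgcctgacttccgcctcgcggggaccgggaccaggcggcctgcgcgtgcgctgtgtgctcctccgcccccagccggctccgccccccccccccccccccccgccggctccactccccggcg
Psmb5: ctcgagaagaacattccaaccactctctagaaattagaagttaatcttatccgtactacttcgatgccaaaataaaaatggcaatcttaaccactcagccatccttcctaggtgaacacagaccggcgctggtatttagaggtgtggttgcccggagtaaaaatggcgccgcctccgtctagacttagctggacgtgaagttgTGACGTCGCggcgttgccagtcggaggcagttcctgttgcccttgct
Psmb6: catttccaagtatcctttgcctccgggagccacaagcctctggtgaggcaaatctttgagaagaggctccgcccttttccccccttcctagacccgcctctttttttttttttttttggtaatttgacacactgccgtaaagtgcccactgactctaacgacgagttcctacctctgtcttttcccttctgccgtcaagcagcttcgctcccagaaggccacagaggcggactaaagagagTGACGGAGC
Psme2: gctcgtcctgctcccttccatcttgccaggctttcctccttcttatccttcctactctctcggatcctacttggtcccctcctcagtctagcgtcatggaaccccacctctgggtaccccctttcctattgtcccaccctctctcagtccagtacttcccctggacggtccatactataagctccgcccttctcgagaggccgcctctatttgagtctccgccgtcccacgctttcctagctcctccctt

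A promoter window was matched for 42 of the 50 genes, with 45 windows in all. The letters CCAAT, searched on both strands, were found for 6 of the 10 standard subunits with a window that were lower in WT CC, namely Psma1, Psma6, Psmb3, Psmc1, Psmc2 and Psmd14. Among 15 standard subunits with a window that did not pass the test, 4 held them (Psma2, Psma3, Psma7 and Psmd4), and 33.8% of 32851 windows of all genes did. Psma6 and Psmc2 each have 2 windows, and 1 of them holds the match. TGACNNNGC was found for 5 of 42 genes (Psmb5, Psmb6, Psmc6, Psmd12 and Psmd9), against 10.2% of all windows. The pattern GAAA, any 2 bases and GAAA, taken from the interferon-stimulated response element, was in 3 of 42 genes and 2.98% of all windows, and the NF-kB pattern GGGA, any 4 bases and CC was in 10 of 42 genes and 17.6% of all windows. Neither was found in the windows of Psmb8, Psmb9 and Psmb10, but all 250 bases of the Psmb8 and Psmb9 windows and 52 of those of Psmb10 are annotated as exon, and the Psmb8 and Psmb9 windows lie inside the annotated genes. The E-box CACGTG was found for 4 of 42 genes, Psmb10 among them, and in 6.02% of all windows. A match describes letters only.

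The libraries held 9954006 to 67625110 counts on genes. Pbrm1 itself was at 309 to 319 CPM in WT CB, 239 to 250 in WT CC, 164 to 178 in HOMO CB and 150 to 152 in HOMO CC, so its RNA was lower in HOMO but present (log2 change -0.88 in CB, edgeR adjusted p = 0.00954, and -0.68 in CC, adjusted p = 0.0564, which did not pass). Summed levels of 5 B cell markers were 3663 to 5148 CPM in the 10 libraries. Summed levels of 12 macrophage genes were 9.52 to 30.0 CPM outside WT CC, and 926, 235 and 49.1 CPM in WT CC libraries 1, 2 and 3. Neutrophil genes summed to 170 and 137 CPM in the HOMO libraries numbered 2 and to at most 15.1 CPM elsewhere. The ribosomal RNA locus took 13.5 to 22.7% of counts in WT CC, most in library 1, and 8.72 to 11.9% in the other libraries. WT CB library 3 stood apart from libraries 1 and 2 for the genes described here, and all 31 tested standard subunits were lowest in it among the 3 WT CB libraries, against 45.2% of all tested genes.

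Per kilobase of gene length, levels in WT CB were highest for the core subunit Psma6, with a mean of 84.1 CPM per kb, and were 76.2 CPM per kb for Psmb8, the highest immunoproteasome subunit. Psma3 had the lowest mean of the tested alpha subunits, with 13.4 CPM per kb. The tested beta subunits lay between 28.8 (Psmb3) and 57.0 (Psmb4), the ATPases between 20.2 (Psmc2) and 64.7 (Psmc1), and the other cap subunits between 18.3 (Psmd3) and 51.0 (Psmd2). Psmb9 was the lowest immunoproteasome subunit, with 25.1 CPM per kb. The inhibitor Psmf1 was at 6.13 CPM per kb, and the chaperones ranged from 2.60 (Psmg3) to 16.3 (Psmd10). These values divide by the gene length in the count table, which ran from 899 bases (Psmb5) to 4595 bases (Psmb1) among the core subunits. The part of gene length in the differences between subunits that are present in equal number in the particle was not tested.

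The first comparison asks how CC differs from CB in WT mice. Standard subunits were lower in CC: 12 of 31 tested passed the test, all downwards, and the estimates of all 31 lay below 0 with a median log2 change of -0.34 and a range from -0.74 to -0.03. Of the 48 tested genes 15 passed, 13 lower and 2 higher, against 23.9% of all 16596 tested genes (12.3% lower and 11.6% higher). The median over the 48 genes was -0.30, and over all tested genes 0.01. The CB and CC groups did not overlap for 14 of the 48 genes and for 34.4% of all tested genes. Among the 5779 genes whose mean level was at least that of the lowest standard subunit, 59.5% had an estimate below 0 and 24.1% were called lower. The 2 genes that rose were the activators Psme2 and Psme2b, and none of the 3 immunoproteasome subunits passed.

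The summed level of the 32 standard subunits was 3246, 3423 and 2517 CPM in the WT CB libraries and 2438, 2362 and 2369 CPM in WT CC. Every CB library lay above every CC library, but CB library 3 by only a small margin. The log2 change and the test used all genes in 1 model, and the count of 15 depended on single libraries. It was 8 without WT CB library 1, 9 without library 2, 31 without library 3, and 8 without WT CC library 2. Calls over all tested genes moved too, from 3965 in the main fit to 2099, 2442, 5235 and 2502 in the same order. WT libraries with the same replicate number may be pairs, which the labels do not state, and the main fit has no block. A fit with the number as a fixed block called 27 of 48 genes and 5867 of all tested genes. Of the 27, 20 were standard subunits, all lower. Without WT CC libraries 1 and 2, where the macrophage genes were high, the 31 estimates stayed below 0 with a median of -0.33. That fit had only 1 WT CC library, so its calls are not compared with the 15. With the ribosomal RNA share as a covariate 1 of the 48 genes passed, against 656 of all tested genes, and the median of the 31 was -0.40. The part of macrophage RNA and of ribosomal RNA in the 15 calls was not tested beyond these fits. Fewer cells of a type and less RNA per cell cannot be told apart in these bulk libraries.

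**Figure D1:**
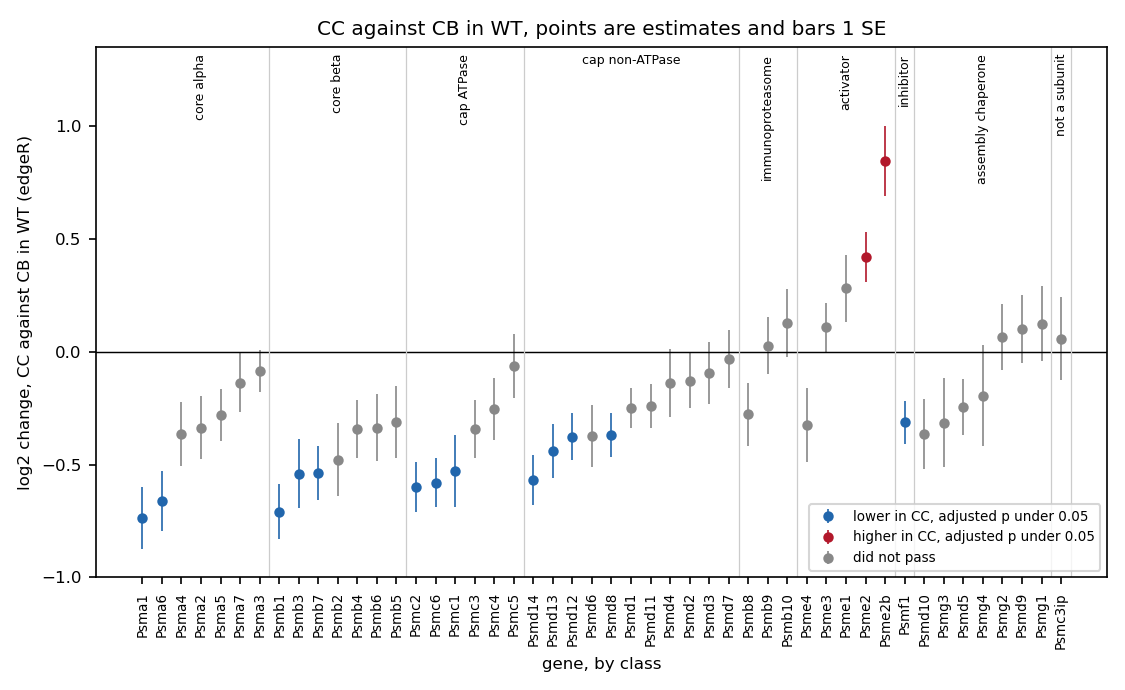
Log2 change of CC against CB in WT (vertical axis, edgeR estimate, bars 1 SE) for the 48 tested genes grouped by class on the horizontal axis, with colours for genes that passed an adjusted p of 0.05. All 31 standard core and cap subunits lie below 0, while 4 of 5 activators lie above it.

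Of the 7 tested alpha ring subunits, Psma1 and Psma6 fell. Psma1 was at 127, 135 and 100 CPM in the WT CB libraries and 67.2, 63.4 and 87.1 CPM in WT CC. The groups did not overlap, and the log2 change was -0.74 (SE 0.14, adjusted p = 0.0036). Psma6 was at 108, 119 and 84.5 CPM in CB and at 59.6, 61.7 and 75.8 CPM in CC, again without overlap. Its log2 change was -0.66 (SE 0.13, adjusted p = 0.00538). The 5 other tested alpha subunits did not pass, with log2 changes from -0.37 (Psma4) to -0.09 (Psma3). Psma3 was the most even of them, at 49.6 to 55.3 CPM in CB and 46.5 to 52.2 CPM in CC.

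Among the beta subunits, Psmb1, a structural member of the beta ring, was at 141, 153 and 110 CPM in the WT CB libraries and 80.0, 76.2 and 91.3 CPM in WT CC. The log2 change of -0.71 (SE 0.12, adjusted p = 0.0026) had the smallest adjusted p of the 48 genes. Psmb7, which carries the trypsin-like site, was at 108, 110 and 79.2 CPM in CB and at 67.8, 68.2 and 68.5 CPM in CC. The CC libraries were nearly equal and all below CB, with a log2 change of -0.54 (SE 0.12, adjusted p = 0.00829). Psmb3, another structural subunit, also fell (-0.54, adjusted p = 0.0266), although its CB library 3 at 49.0 CPM lay within the CC range of 41.6 to 49.3 CPM. Psmb5, which carries the chymotrypsin-like site, had a log2 change of -0.31 (SE 0.16, adjusted p = 0.184), and Psmb6, which carries the caspase-like site, one of -0.34 (SE 0.15, adjusted p = 0.13). Neither passed, but without WT CB library 3 both did, at -0.50 (adjusted p = 0.00305) and -0.52 (adjusted p = 0.00146). Psmb5 also passed with an offset for GC content (-0.40, adjusted p = 0.031) and Psmb6 with no filter on low counts (-0.36, adjusted p = 0.0285). Psmb5 was at 37.9, 38.3 and 24.3 CPM in CB and 27.7, 25.9 and 27.1 CPM in CC, so that CB library 3 was the lowest of the 6.

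Of the cap ATPases, which form the ring that unfolds substrates, 3 of 6 passed. Psmc2 was at 108, 109 and 87.3 CPM in the WT CB libraries and 63.6, 62.3 and 75.3 CPM in WT CC (log2 change -0.60, SE 0.11, adjusted p = 0.00359). Psmc6 was at 90.8, 93.4 and 81.8 CPM in CB and 61.7, 50.4 and 65.7 CPM in CC (-0.58, SE 0.11, adjusted p = 0.00364). Both genes had every CC library below every CB library. Psmc1 also passed (-0.53, adjusted p = 0.0331), with groups that overlapped. The other 3 ATPases had log2 changes from -0.34 (Psmc3) to -0.06 (Psmc5).

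Of 11 non-ATPase cap subunits, 4 passed. Psmd14 encodes the deubiquitinase that removes ubiquitin chains from substrates, and it was at 125, 137 and 120 CPM in the WT CB libraries and 89.8, 72.3 and 95.8 CPM in WT CC. Its CB libraries were close together and its log2 change was -0.57 (SE 0.11, adjusted p = 0.00444). The lid subunits Psmd13 (-0.44, adjusted p = 0.0218), Psmd12 (-0.38, adjusted p = 0.0239) and Psmd8 (-0.37, adjusted p = 0.0179) also fell. Each had groups that did not overlap. Psmd2, a scaffold that binds ubiquitin-like domains, and Psmd4, a ubiquitin receptor, had log2 changes of -0.13 and -0.14 and did not pass.

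The immunoproteasome subunits did not pass in either direction in WT. Psmb8, the counterpart of Psmb5, was at 275, 300 and 197 CPM in the WT CB libraries and 204, 238 and 196 CPM in WT CC, with overlap and a log2 change of -0.28 (SE 0.14, adjusted p = 0.179). With the WT number as a fixed block the change was -0.26 and passed (adjusted p = 0.0256), as it did with the GC offset (-0.29, adjusted p = 0.0497) and without WT CB library 3 (-0.43, adjusted p = 0.00476). Psmb9, the counterpart of Psmb6, was at 95.6, 106 and 73.7 CPM in CB and 95.5, 99.4 and 85.0 CPM in CC, with a log2 change of 0.03 (SE 0.13, adjusted p = 0.909). Psmb10, the counterpart of Psmb7, was at 51.0, 52.7 and 38.1 CPM in CB and 57.4, 54.7 and 42.1 CPM in CC, with a log2 change of 0.13 (SE 0.15, adjusted p = 0.596). For all 3 genes the library numbered 3 was the lowest in both fractions. The sign of the Psmb9 and Psmb10 estimates changed under some other settings.

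Of the activators, Psme2, the beta subunit of PA28, was at 67.2, 74.4 and 56.4 CPM in the WT CB libraries and 85.1, 95.4 and 84.3 CPM in WT CC. Every CC library lay above every CB library, and the log2 change was 0.42 (SE 0.11, adjusted p = 0.0179). Its partner Psme1 was at 120, 135 and 88.8 CPM in CB and 142, 157 and 118 CPM in CC, with overlap and a log2 change of 0.28 (SE 0.15, adjusted p = 0.198). With the fixed block Psme1 passed too (0.29, adjusted p = 0.0057), and so it did without WT CC library 3 (0.40, adjusted p = 0.0469). Psme2b, a near copy of Psme2, was at 6.58, 7.39 and 7.80 CPM in CB and 11.3, 13.0 and 14.95 CPM in CC (log2 change 0.85, SE 0.16, adjusted p = 0.00347). Reads of Psme2 and Psme2b may be shared between them, so the value of Psme2b is uncertain. Psme3, the nuclear activator, and Psme4, a large single-chain activator, had log2 changes of 0.11 and -0.32 and did not pass.

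The inhibitor Psmf1 was lower in CC (41.7, 40.5 and 36.3 CPM in CB against 30.7, 32.7 and 31.9 CPM in CC, log2 change -0.31, adjusted p = 0.0336). None of the 7 assembly chaperones passed, with log2 changes from -0.37 (Psmd10) to 0.12 (Psmg1). Of the 15 genes that passed, Psme2b passed in 24 of 24 alternative analyses, Psmb1, Psmc6 and Psmd14 in 21, and Psma1, Psma6 and Psmc2 in 20. Psmf1 passed in 11 and Psmc1 in 14. Psma1, Psma6, Psmb1, Psmb7, Psmc2, Psmc6, Psmd14 and Psme2b passed whichever 1 of the 10 libraries was left out. The other 7 did not pass without WT CB library 1 or without WT CC library 2, and those except Psme2 did not pass without WT CB library 2. Psmb3, Psmd8 and Psmf1 also lost the call without WT CC library 1, Psmc1 without WT CC library 3 or HOMO CC library 3, and Psmf1 without HOMO CB library 2 or HOMO CC library 3.

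**Figure D2:**
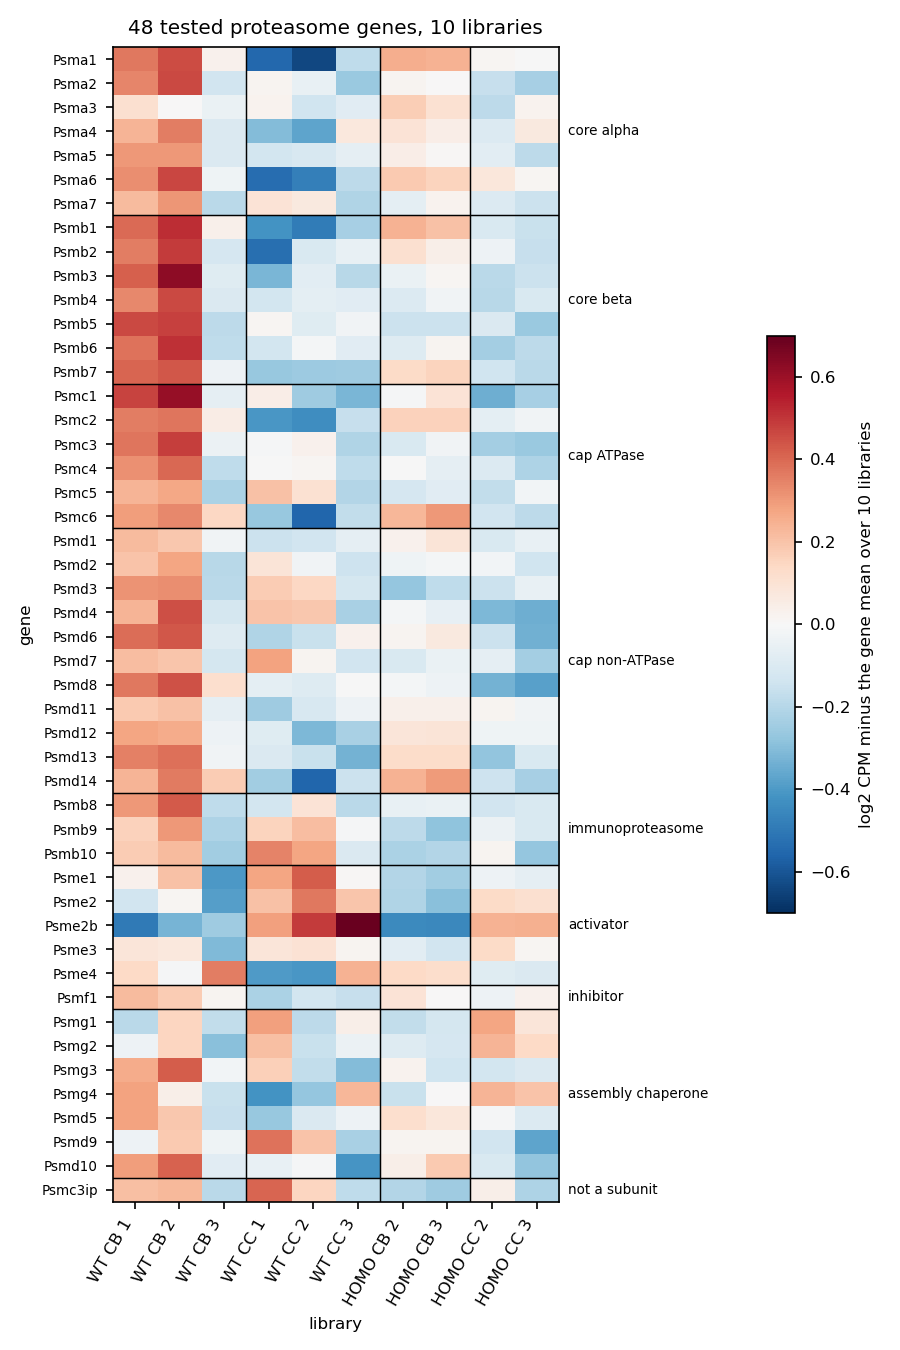
Level of each of the 48 tested genes (rows, by class) in each library (columns), as log2 CPM minus the gene's mean over 10 libraries. WT CB libraries 1 and 2 are the highest for most standard subunits, and WT CB library 3 is nearer to the HOMO CB libraries, while Psme2b is highest in WT CC.

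The immunoproteasome subunits can be set against the standard subunit whose place they take, as a ratio of CPM per kb within a library, which does not depend on the scaling between libraries. Psmb10 over Psmb7 was 0.949, 0.962 and 0.964 in WT CB and 1.70, 1.61 and 1.23 in WT CC. It was 0.870 and 0.869 in HOMO CB and 1.24 and 1.05 in HOMO CC. In each genotype every CC library lay above every CB library. Psmb9 over Psmb6 was 0.752, 0.762 and 0.856 in WT CB and 1.07, 1.03 and 0.920 in WT CC. It was 0.825 and 0.712 in HOMO CB and 1.01 and 0.923 in HOMO CC, again without overlap between fractions. For levels of single genes, the fractions did not overlap for 34.4% of all tested genes in WT and 62% in HOMO. The share for ratios of other gene pairs was not counted.

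Psmb8 over Psmb5 showed no such separation, with 1.93, 2.08 and 2.16 in WT CB and 1.96, 2.44 and 1.92 in WT CC. It was 2.31 and 2.32 in HOMO CB and 2.10 and 2.40 in HOMO CC. Group means of Psmb10 over Psmb7 were 0.958 ± 0.00831 (SD, n = 3) in WT CB, 1.51 ± 0.246 (SD, n = 3) in WT CC, 0.869 ± 0.00107 (SD, n = 2) in HOMO CB and 1.14 ± 0.133 (SD, n = 2) in HOMO CC. The ratios are given without a test. The longest annotated transcript of Psmb10 has 56.5% GC and that of Psmb7 40.8%. With an offset for GC content the WT log2 change was -0.34 for Psmb7 (adjusted p = 0.116) and 0.02 for Psmb10. The ratio was largest in WT CC libraries 1 and 2, which also had the most macrophage RNA; the part of macrophage RNA in it was not tested.

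**Figure D3:**
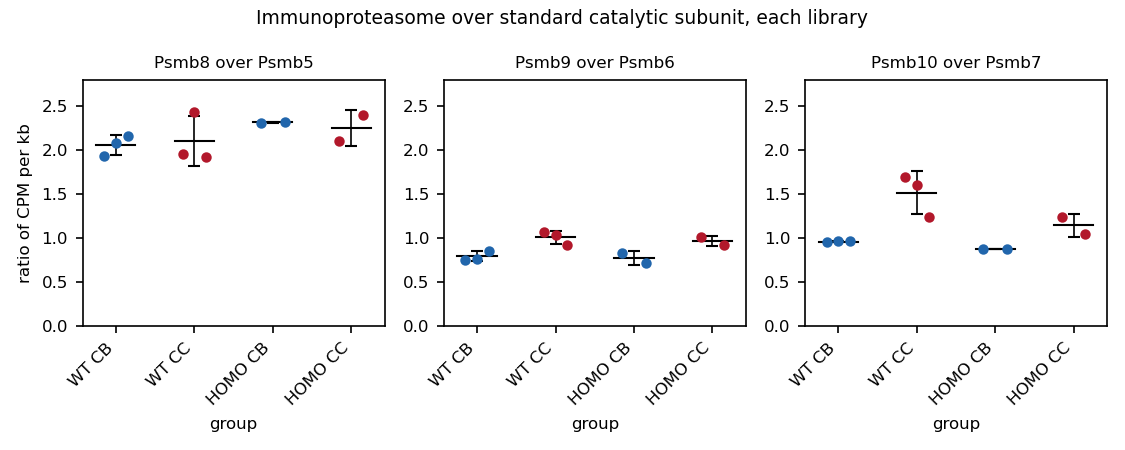
Ratio of CPM per kb of each immunoproteasome subunit over its standard counterpart (vertical axis from 0) in each library (points) of the 4 groups, with group mean and SD as bars. Psmb9 over Psmb6 and Psmb10 over Psmb7 are higher in CC than in CB in both genotypes, and Psmb8 over Psmb5 overlaps.

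The second comparison asks the same of HOMO mice. None of the 48 genes passed the edgeR test, against 5.45% of all tested genes (2.46% higher and 2.98% lower). An unadjusted p under 0.05 was found for 6 members and for 3188 of all 16596 tested genes. DESeq2 called 4 of the 48 genes, and its calls over all tested genes are not given here. The standard subunits had estimates below 0 for 29 of 31, with a median log2 change of -0.17. The share below 0 was 51% of all tested genes. It was 60.5% of the 5779 genes whose mean level was at least that of the lowest standard subunit. The smallest adjusted p belonged to Psme2b, at 6.81 and 6.79 CPM in HOMO CB and 10.99 and 11.01 CPM in HOMO CC (log2 change 0.69, SE 0.19, adjusted p = 0.0621). Psmd14 followed, at 126 and 131 CPM in CB and 96.1 and 90.3 CPM in CC (-0.46, SE 0.13, adjusted p = 0.0752), then Psmc6 (-0.43, SE 0.13, adjusted p = 0.0923). For all 3 genes the 2 fractions did not overlap, as was so for 39 of the 48 genes and 62% of all tested genes.

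Psme2 was at 63.7 and 60.1 CPM in HOMO CB and 80.9 and 79.8 CPM in HOMO CC (0.38, SE 0.13, adjusted p = 0.142), and passed in DESeq2 (adjusted p = 0.0454). Psmb8 was at 215 and 216 CPM in CB and 203 and 207 CPM in CC. Psmb9 was at 75.5 and 70.4 CPM in CB and 83.3 and 79.4 CPM in CC. Psmb10 was at 38.6 and 39.2 CPM in CB and 45.6 and 37.4 CPM in CC. Their log2 changes were -0.07, 0.16 and 0.10. Fitted on the HOMO libraries alone, 18 of the 48 genes passed. In the fit of all groups, leaving out WT CB library 3 gave 6 calls, WT CC library 3 gave 3 and WT CC library 2 gave 1. For the fit on the HOMO libraries alone and for these fits, calls over all tested genes are not given here.

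Whether the change from CB to CC differs between genotypes was tested by the interaction. None of the 48 genes passed (0% of all tested genes). An unadjusted p under 0.05 was found for 434 of all 16596 tested genes and for 3 members. These were Psma6 (log2 0.54, SE 0.21), Psma1 (0.50, SE 0.22) and Psmc2 (0.39, SE 0.17). Each of them was lower in WT CC than in HOMO CC. Psma1, for example, was at 99.5 and 98.3 CPM in HOMO CC against 67.2, 63.4 and 87.1 CPM in WT CC. The sign of the estimates from CB to CC was shared between WT and HOMO by 44 of 48 genes and by 76.7% of all tested genes. The WT estimate was the larger in size for 37 of 48 genes and for 59.5% of all tested genes.

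**Figure D4:**
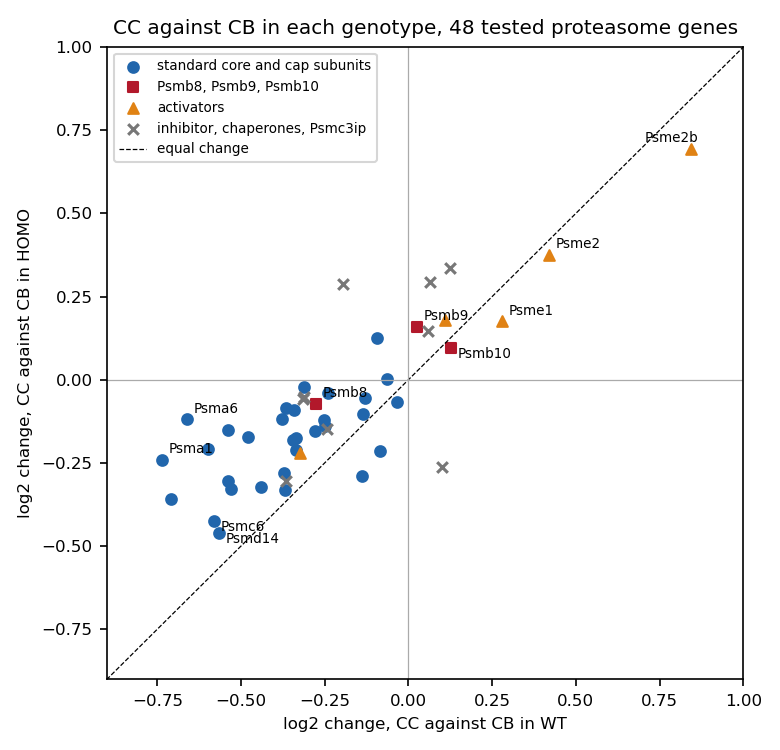
Log2 change of CC against CB in HOMO (vertical axis) against that in WT (horizontal axis) for the 48 tested genes, with the line of equal change dashed. Most standard subunits lie above the line in the lower left, with Psma1 and Psma6 at -0.74 and -0.66 in WT, and the activators Psme2 and Psme2b lie in the upper right.

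In CB, HOMO against WT, none of the 48 genes passed, against 0.0241% of all tested genes (0.00603% higher and 0.0181% lower). An unadjusted p under 0.05 was found for 5 members and for 2079 of all 16596 tested genes. Estimates were below 0 for 45 of 48 genes and for 54.3% of all tested genes, with a median log2 change of -0.14 (all genes -0.04). The genotypes did not overlap for 2 of 48 genes, against 35.2% of all tested genes. The summed standard subunits were at 2704 and 2739 CPM in HOMO CB, between WT CB library 3 at 2517 CPM and libraries 1 and 2 at 3246 and 3423 CPM. For 28 of 31 standard subunits both HOMO libraries lay below WT libraries 1 and 2, and for 28 of 31 both lay above library 3. The shares of all tested genes in these orders were not counted, so the orders may not be particular to these subunits. The smallest adjusted p belonged to Psmd8 (143, 151 and 120 CPM in WT CB, 110 and 108 CPM in HOMO CB, log2 change -0.34, adjusted p = 0.289). Psmb5 had the most negative estimate (-0.43, SE 0.18), and Psmb8, Psmb9 and Psmb10 had estimates of -0.26, -0.33 and -0.28. Without WT CB library 3, 14 of the 48 genes passed, and without both WT libraries numbered 3, 27. Calls over all tested genes in these fits are not given here, so the rise may not be particular to the members. Between fractions in WT, leaving out both libraries numbered 3 raised calls over all tested genes from 3965 to 7404.

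In CC, HOMO against WT, none of the 48 genes passed (0% of all tested genes). An unadjusted p under 0.05 was found for 6 members and for 3142 of all 16596 tested genes. The median log2 change was -0.04 (all genes -0.03). The standard subunits were split, 13 above and 18 below 0, and 52.9% of all tested genes were below 0. The genotypes did not overlap for 17 of 48 genes, against 35.2% of all tested genes. Psma6 (0.44, SE 0.15, adjusted p = 0.17) and Psma1 (0.45, SE 0.15, adjusted p = 0.171) were higher in both HOMO libraries than in every WT library. Psmd8 went the other way, at 88.0 and 85.2 CPM in HOMO CC against 106, 104 and 111 CPM in WT CC (-0.30, SE 0.11, adjusted p = 0.187). The summed standard subunits were at 2404 and 2380 CPM in HOMO CC, within the WT CC range of 2362 to 2438 CPM. Without WT CC library 3, 5 genes passed, and without both WT libraries numbered 3, 18. Calls over all tested genes in these fits are not given here, so the rise may not be particular to the members. Each comparison between genotypes shares its WT libraries with the comparison of fractions in WT.

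The log2 changes went with GC content among the members, taken from the longest annotated transcript of each gene. Over the 48 genes, the rank correlation between GC content and log2 change was 0.43 between fractions in WT and 0.41 between fractions in HOMO, and it was -0.61 between genotypes in CB and -0.58 between genotypes in CC. These describe genes measured in the same libraries and carry no test. The 12 standard subunits that were lower in WT CC had a median GC content of 47.3%, the 19 others 51.0% and the 3 immunoproteasome subunits 54.1%. With an offset for GC content 19 of 48 genes were called in WT, with 13 of the main fit's 15 among them. Calls over all tested genes went from 3965 to 4208.

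Genes that control or work with the proteasome were listed separately. Of 22 tested partners, assembly factors and regulators, 8 were lower and 1 higher in WT CC, against 12.3% of all tested genes lower and 11.6% higher. Nfe2l1, the transcription factor that drives subunit genes when proteasome activity is short, rose from 74.6, 76.4 and 71.7 CPM in CB to 107, 106 and 88.9 CPM in CC (0.44, SE 0.09, adjusted p = 0.00679). Ngly1, the deglycosylase that Nfe2l1 needs to become active, fell (-0.55, adjusted p = 0.00197), and so did Akirin2, which carries proteasomes into the nucleus (-0.62, adjusted p = 0.00567). Ecpas, a proteasome adaptor, and Ubqln1, a shuttle for ubiquitinated proteins, also fell (-0.54 and -0.48). Without WT CC libraries 1 and 2, where the macrophage genes were high, Nfe2l1 was at 0.27 (adjusted p = 0.161), Akirin2 at -0.35 (adjusted p = 0.174), Ubqln1 at -0.26 (adjusted p = 0.163) and Ecpas at -0.35 (adjusted p = 0.118). With the ribosomal RNA share as a covariate they were at 0.22 (adjusted p = 0.344), -0.32 (adjusted p = 0.327), -0.26 (adjusted p = 0.305) and -0.40 (adjusted p = 0.199), so none of the 4 passed in either fit. Ngly1 passed in 24 of 24 alternatives. In HOMO, Ngly1 (-0.58, adjusted p = 0.0122) and Akirin2 (-0.64, adjusted p = 0.0359) fell and the other 20 did not pass, against 2.98% of all tested genes lower.

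Of 8 genes that control the immunoproteasome or handle its peptides, 2 were higher in CC in both genotypes, against 11.6% of all tested genes higher in WT and 2.46% in HOMO. Nlrc5, the transactivator of MHC class I genes, rose from 86.5, 82.1 and 111 CPM to 165, 166 and 169 CPM in WT (0.83, adjusted p = 0.000516) and from 96.0 and 99.3 CPM to 147 and 146 CPM in HOMO (0.59, adjusted p = 0.0284). Tapbp, which bridges the peptide transporter and class I molecules, rose by 0.63 in WT (adjusted p = 0.00174) and 0.70 in HOMO (adjusted p = 0.00844). In WT, Nlrc5 passed in 24 of 24 alternatives, and Tapbp did not pass without WT CC libraries 1 and 2 (0.53, adjusted p = 0.0608) or with the ribosomal RNA share (0.48, adjusted p = 0.108). In HOMO, the calls of Nlrc5, Tapbp, Ngly1 and Akirin2 were each lost when any 1 of the 4 HOMO libraries was left out, and that of Akirin2 also without WT CB library 1. With the GC offset, the HOMO calls of Nlrc5 (0.53, adjusted p = 0.119) and Ngly1 (-0.40, adjusted p = 0.0988) were lost, and those of Tapbp and Akirin2 were kept. Akirin2 in HOMO did not pass with upper-quartile scaling (-0.59, adjusted p = 0.063) or without both WT libraries of number 1 or 2. Nlrc5 in HOMO did not pass without both of number 1. Tap1, whose start lies 211 bases from that of Psmb9 on the opposite strand (mm10 chr17:34187553-34197225 against chr17:34181987-34187764), had log2 changes of 0.10 in WT and 0.21 in HOMO and did not pass. None of the listed genes passed between genotypes in either fraction or in the interaction.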

How the data were processed

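RNA was measured in 10 libraries by sequencing after ribosomal RNA depletion, per the labels' protocols. The authors deposited raw read counts per gene on mm10. FastQC, STAR, Subread, featureCounts and R 4.2.1 are named in the submitters' processing notes. For the annotation release and strand setting, the sources used here give nothing. The HOMO libraries are called 2 and 3 as in the count table, since these numbers could not be matched to sample titles. Members and lists were chosen with earlier results of these data known.

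Genes were kept by filterByExpr (minimum count 10, minimum total 15), which left 16596, and scaled by TMM. Changes were tested with edgeR 4.0.16 (R 4.3.3) by robust quasi-likelihood F-tests in 1 model of 4 group means over all libraries, with Benjamini-Hochberg adjustment and a threshold of 0.05. CPM used TMM library sizes, and CPM per kb the gene length in the count table. Genes named are Psmb5 to Psmb10, Psme1 and Psme2 in every comparison and up to 4 called genes per class and direction, and the same number per direction of the related lists; others named were chosen after their values were seen. The 4 pseudogenes that match the symbol rule were left out (at most 0.281 CPM).

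Alternatives were DESeq2 1.42.0, other scaling, filters, subsets of libraries, blocks (limma 3.58.1 for the random one), a GC offset and ribosomal RNA share. Same-numbered WT libraries deviated together (r = 0.301, 0.426 and 0.436 over 8805 genes, other pairs -0.411 to 0.278). No pair of replicates agreed within sampling noise (chi-square per degree of freedom 4.14 to 80.7). The tests were tried on simulated data. A 1.5-fold change passed for 35.8% of changed genes between fractions in WT and 10.4% in HOMO. Between genotypes it passed for 28.4% in CB and 25.4% in CC, and in the interaction for 1.49%. A 4-fold change passed for 89.4 to 98.5%. A gene that did not pass may therefore still differ. Promoter windows are RefSeq sequences of GRCm38.p6. Of the gene identifiers, 54673 matched GENCODE M21 in identifier, version and position.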

Additional observations from a re-analysis of the deposited data

How the results depend on the processing

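For the genes picked by the naming rule, 64 results gave 1512 values under the alternatives, of which 1300 kept direction and side of the threshold, 129 lost the call, 41 gained one and 42 changed sign. Counts of genes called for CC against CB in WT (15) became 8 with the groups compared alone, 27 with the fixed replicate block, 1 with the ribosomal RNA share, 3, 4 and 34 without both WT libraries of number 1, 2 and 3, and 8 to 31 leaving out 1 library. The alternative without WT CC libraries 1 and 2 was chosen after seeing the data and had only 1 WT CC library. Over its 24 alternatives, 27 to 31 standard subunits had estimates below 0 and none was called higher. Calls over all tested genes, 3965 in the main fit, became 1010, 1243 and 7404 without both WT libraries of number 1, 2 and 3. For the other comparisons, calls over all genes under the alternatives are not given here. In HOMO (0) the counts were 4 with DESeq2, 1 with upper-quartile scaling, no filter, a stricter filter or the ribosomal RNA share, 18 with the groups compared alone, 7 with the replicate block, 2 with the GC offset, 1 and 16 without WT number 2 and 3, 3 without WT CC libraries 1 and 2, and 0 to 6 leaving out 1 library. HOMO against WT (0) gave 27 in CB and 18 in CC without WT number 3, 2 in CC with no filter, and 0 to 14 in CB and 0 to 5 in CC leaving out 1 library. The interaction (0) gave 10 without WT number 3. The replicate block changed the calls of Psmb8 and Psme1 in WT, given above, and of Psme2 in HOMO (0.38, adjusted p = 0.0162), where the block had terms for the WT numbers alone. It changed no other call among the 64 results. Without division by gene length the ratios (CB then CC, first in WT and then in HOMO) were 7.74, 7.92, 8.72 and 8.47 (Psmb8 over Psmb5), 1.55, 1.97, 1.502 and 1.89 (Psmb9 over Psmb6), and 0.478, 0.755, 0.433 and 0.570 (Psmb10 over Psmb7).

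Sign changes touched estimates that had not passed, and their cause was not tested. With the GC offset they were -0.028 for Psmb9 in WT, -0.025 for Psmb10 in HOMO, 0.047 for Psme1 and 0.052 for Psme2 in HOMO against WT CB, and 0.051, 0.072 and -0.15 for Psmb8, Psmb5 and Psmb7 in HOMO against WT CC. With the ribosomal RNA share they were -0.12 and -0.24 for Psmb9 and Psmb10 in WT, -0.00021 for Psmb10 in HOMO, 0.045 and 0.089 for Psmb8 and Psmb10 in HOMO against WT CC, and 0.24 and 0.069 for Psmb10 and Psme1 in the interaction. Without WT CC libraries 1 and 2 they were -0.10 and -0.16 for Psmb9 and Psmb10 in WT, 0.067 for Psmb8 in HOMO against WT CC, and 0.26, 0.14 and 0.027 for Psmb10, Psme1 and Psme2 in the interaction. Psmb5 in HOMO was 0.035 with upper-quartile scaling and 0.0052 with the groups compared alone. Without WT number 2, Psme2 was 0.0032 in HOMO against WT CB and Psmb8 0.037 in HOMO against WT CC. Without WT number 3, Psmb9 was -0.046 in WT and Psme2 0.031 in the interaction. Leaving out 1 library gave Psmb9 -0.11 to 0.14 and Psmb10 -0.0066 to 0.27 in WT, Psmb5 -0.12 to 0.042 and Psmb10 -0.069 to 0.22 in HOMO, Psme2 -0.19 to 0.0029 in HOMO against WT CB, Psmb8 -0.096 to 0.037 in HOMO against WT CC, and Psmb10 -0.18 to 0.11, Psme1 -0.24 to 0.050 and Psme2 -0.14 to 0.059 in the interaction. The 2 HOMO libraries per fraction limit the precision of every comparison between genotypes.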
